A study of Ambystoma mexicanum with 3 samples.

Results

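The 9 genes described here code for histone methyltransferases of the Trithorax type, a partner of their complexes, and ATP-dependent chromatin remodellers: KMT2A, KMT2C, KMT2CB, ASH1L, NCOA6, CHD1, CHD8, ATRX and ARID1A. They were chosen by name among the 16033 symbols of the axolotl transcript assembly, and every feature that carries one of these symbols was counted toward it, which gave 27 of 91648 features. The study asked how romidepsin, an inhibitor of class I histone deacetylases, changes transcription after tail amputation in axolotl embryos. Nuclei were isolated from the tip of the tail and their RNA was sequenced on the 10x Genomics platform, in which each captured molecule carries a unique molecular identifier (UMI). Rom 6 HPA nuclei came from stage 42 embryos kept in 10 µM romidepsin after a 2 mm tail amputation, and Cont 6 HPA nuclei came from untreated stage 42 embryos with the same amputation. In both, the distal 1 mm of the tail of 100 embryos was pooled 6 h post amputation (HPA) into a single library. The 0 HPA nuclei came from tail tips of untreated stage 42 embryos at the time of amputation. The labels give the later time in days and the study gives it in hours, and hours are used here. Each condition was 1 library of pooled embryos, which leaves the spread between replicates unknown, and conditions were compared without a test.

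Trithorax proteins keep genes active by modifying histone tails, and Polycomb proteins oppose them. KMT2 enzymes place methyl groups on lysine 4 of histone H3: KMT2A acts at promoters such as those of the Hox genes, and KMT2C with NCOA6 acts mostly at enhancers. ASH1L methylates lysine 36 of the same histone, and remodellers of the CHD, ATRX and BAF families use ATP to slide, evict or exchange nucleosomes.

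The libraries held 31522 to 56936 nuclei and 42537606 to 105765943 UMIs, with a median of 1019 to 1623 UMIs per nucleus, highest in Cont 6 HPA. The study's text gives the numbers of nuclei of both 6 HPA libraries the other way round, and the sample labels are followed here. Between 469 and 736 cell barcodes occurred in a pair of libraries, which concerned 2.19% to 3.12% of the nuclei of a library. Levels are UMIs of a symbol per 1000000 UMIs of the nuclei summed (CPM). All intervals are exact 95% intervals and cover counting error only. CPM are not scaled by transcript length, so levels were compared between nuclei and not between genes.

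The 27 features were spread unevenly over the 9 symbols. ASH1L, NCOA6 and KMT2CB had 1 feature each. CHD1, ATRX and ARID1A had 2 features each, KMT2C had 4 and KMT2A had 5. CHD8 had 9 features, of which 1 held UMIs. One feature held 99.1% of the UMIs of ATRX, 92.7% of those of KMT2C and 70.1% of those of KMT2A. CHD1 and ARID1A were split more evenly, at 63.9% and 36.1% of the CHD1 UMIs and 59.8% and 40.2% of the ARID1A UMIs. Some identities are uncertain. KMT2C and KMT2CB share their feature number with KMT2D and with 4 features without a symbol that held 11390 UMIs. The counted CHD8 feature (18482 UMIs) shares its number with 3 features named CHD9 (2060 UMIs). Of the KMT2A features, 2 with 1043 UMIs share their number with features named for the paralog KMT2B. How reads were divided between these close relatives was not tested.

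All 9 genes were detected in all 3 libraries, and each of them was highest at 0 HPA, intermediate in Rom 6 HPA and lowest in Cont 6 HPA. KMT2A, the founding member of the family in vertebrates, had 71.1 CPM in Rom 6 HPA (69.0 to 73.3), 48.7 CPM in Cont 6 HPA (47.3 to 50.01) and 90.8 CPM at 0 HPA (87.9 to 93.7). KMT2C, the catalytic subunit of enhancer-bound complexes, had 76.2 CPM in Rom 6 HPA, 51.1 CPM in Cont 6 HPA and 90.04 CPM at 0 HPA. KMT2CB had 25.8 CPM in Rom 6 HPA, 17.9 CPM in Cont 6 HPA and 32.2 CPM at 0 HPA. Whether KMT2CB is a gene apart from KMT2C was not tested. The KMT2 symbols thus stood in one order, and no interval of a library touched that of another. ASH1L had 159.9 CPM in Rom 6 HPA (157 to 163), 121 CPM in Cont 6 HPA (119 to 123) and 206 CPM at 0 HPA (202 to 211). NCOA6, a nuclear receptor coactivator that sits in KMT2C complexes, had 19.5 CPM in Rom 6 HPA, 14.0 CPM in Cont 6 HPA and 24.4 CPM at 0 HPA.

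The remodellers stood in the same order. CHD1, which binds methylated lysine 4 of histone H3 and acts on transcribed genes, had 89.9 CPM in Rom 6 HPA, 68.1 CPM in Cont 6 HPA and 109.6 CPM at 0 HPA. CHD8, which represses β-catenin targets in mammals, had 97.3 CPM in Rom 6 HPA, 69.0 CPM in Cont 6 HPA and 128 CPM at 0 HPA. ATRX, which with DAXX places the histone variant H3.3 at repeats and heterochromatin, had 115 CPM in Rom 6 HPA (112 to 118), 92.9 CPM in Cont 6 HPA (91.1 to 94.7) and 129.8 CPM at 0 HPA (126 to 133). The libraries were closer to each other for ATRX than for the CHD genes. ARID1A, a DNA-binding subunit of the BAF complex, had 16.2 CPM in Rom 6 HPA (15.2 to 17.2), 13.9 CPM in Cont 6 HPA (13.2 to 14.7) and 18.9 CPM at 0 HPA (17.6 to 20.2). The intervals of the 3 libraries were apart for 9 of 9 genes. Summed over the 9 genes, the level was 671 CPM in Rom 6 HPA, 497 CPM in Cont 6 HPA and 830.3 CPM at 0 HPA.

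**Figure D1:**
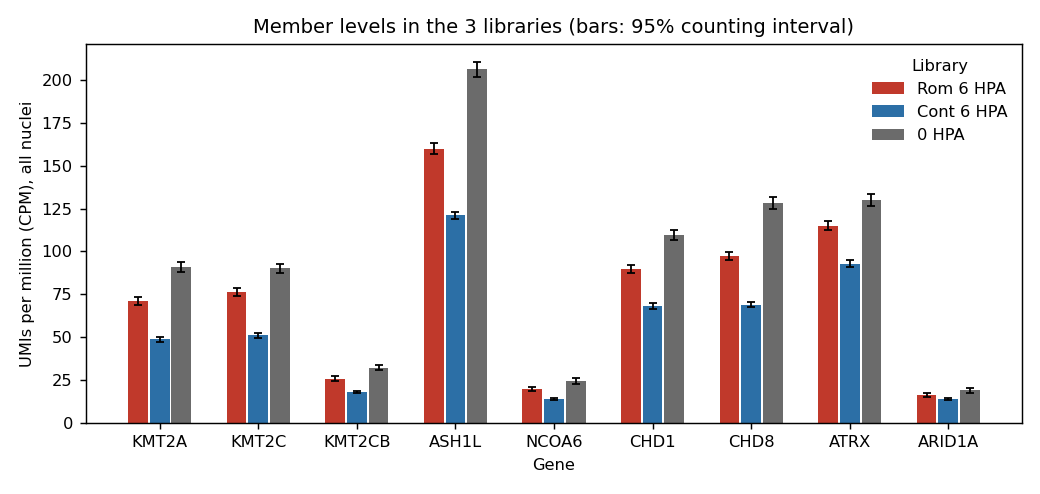
Level of each gene in CPM over all nuclei of a library, with Rom 6 HPA, Cont 6 HPA and 0 HPA as bars from left to right and exact 95% counting intervals as error bars. In each of the 9 genes the Cont 6 HPA bar is the lowest and the 0 HPA bar the highest, from ARID1A (16.2, 13.9 and 18.9 CPM) to ASH1L (159.9, 121 and 206 CPM).

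To ask what romidepsin did at 6 HPA, Rom 6 HPA was set against Cont 6 HPA over all nuclei. The ratio was above 1 for each of the 9 genes, but for none did it reach 1.5-fold. On the log2 scale the KMT2 genes had ratios of 0.55 (KMT2A, 0.49 to 0.61), 0.58 (KMT2C, 0.52 to 0.64) and 0.53 (KMT2CB, 0.43 to 0.63). The ratio was 0.50 for CHD8, 0.48 for NCOA6 and 0.40 for both ASH1L and CHD1. ATRX (0.31, 0.26 to 0.35) and ARID1A (0.22, 0.10 to 0.34) differed least. All 9 intervals were above 0. The median of the 9 genes was 0.48, against a median of −0.02 over the 5592 symbols whose UMIs in the 2 libraries summed to 1000 or more. The count of members at 1.5-fold or more higher was 0, against 3.25% of those symbols. This count depends on settings close to the threshold, since 1 gene passed it with other size factors and 3 genes passed it when each nucleus was thinned to 950 UMIs.

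The injury comparison set Cont 6 HPA against 0 HPA and shares the Cont 6 HPA library with the comparison above. All 9 genes were lower in Cont 6 HPA, and 7 of them were at least 1.5-fold lower, against 9.53% of 5438 symbols. KMT2A and CHD8 differed most, with log2 ratios of −0.90 each (−0.96 to −0.84 and −0.95 to −0.85). KMT2CB (−0.85), KMT2C (−0.82), NCOA6 (−0.80), ASH1L (−0.77) and CHD1 (−0.69) followed. ATRX (−0.48, −0.53 to −0.44) and ARID1A (−0.44, −0.56 to −0.31) were the 2 genes that did not reach 1.5-fold. The median of the 9 genes was −0.80, against a median of −0.13 over all symbols tested. Summed over the 9 genes, Rom 6 HPA stood at a log2 ratio of −0.31 to 0 HPA (−0.33 to −0.29). In sums over a library, fewer nuclei that contain a transcript and fewer transcripts per nucleus cannot be told apart, so both were then looked at by group of nuclei.

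Nuclei of the 3 libraries were clustered without the 9 genes and without the other chromatin genes named below, and the 18 clusters fell into 2 states. The state with the larger share of UMIs on repeat transcripts is called high and the other low. Repeat transcripts made up 0.457%, 0.468% and 0.487% of the UMIs of the high state in Rom 6 HPA, Cont 6 HPA and 0 HPA, against 0.131%, 0.121% and 0.146% in the low state. The high state held 15.6% of the nuclei of Rom 6 HPA (15.3 to 16.0), 10.54% of those of Cont 6 HPA (10.3 to 10.8) and 21.9% of those of 0 HPA (21.5 to 22.4). These shares stood in the same order as the levels of the 9 genes. High nuclei were deeper, with median UMIs of 2209, 3432 and 2198 in the high state, against 1061, 1604 and 996 in the low state of the same libraries. Ribosomal protein transcripts were lower in the high state, at 5.39%, 5.27% and 6.18% of UMIs, against 9.31%, 9.22% and 9.92% in the low state. Markers of cell types went both ways between the states. Of 135 markers of 12 cell types, 82, 88 and 88 were higher in the high state of the 3 libraries. Among all symbols with at least 1000 UMIs, 35.2%, 40.1% and 35.3% were higher there. The markers had no such minimum, so these shares are not on a par with theirs. In Cont 6 HPA the median log2 ratio of all symbols was −0.21 at this minimum and 0.04 at 200 UMIs. In the low state 15, 15 and 17 markers had 0 UMIs. The summed markers of a type were higher in the high state for 5, 6 and 7 of the 12 types. Muscle markers summed to 2971, 2747 and 2703 CPM in the high state, against 1479, 1253 and 1266 CPM in the low state, whereas basal epidermis markers summed to 16307, 16865 and 19867 CPM in the high state, against 28484, 29815 and 32732 CPM in the low state. The part of depth, ribosomal transcripts and cell types in the levels of the 9 genes was not tested.

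The 9 genes were concentrated in the high state. It held 78.8% of their UMIs in Rom 6 HPA, 73.8% in Cont 6 HPA and 85.6% in 0 HPA, although it held only 29.9%, 21.6% and 40.6% of all UMIs. A high nucleus held on average 4.45, 6.45 and 4.38 UMIs of the 9 genes in the 3 libraries, against 0.222, 0.271 and 0.206 UMIs in a low nucleus. All 9 genes were at least 2-fold higher in the high state of each library, against 15.4% of 3406 symbols in Rom 6 HPA, 16.0% of 4625 in Cont 6 HPA and 15.3% of 2911 in 0 HPA. Those symbols had at least 1000 UMIs, which ARID1A did not reach in Rom 6 HPA (952 UMIs) and 0 HPA (802 UMIs). With a minimum of 100 UMIs the shares of symbols were 23.0%, 26.3% and 23.0%. The median log2 ratio of high to low state was 3.58, 3.93 and 3.64 for the 9 genes, against −0.32, −0.21 and −0.28 for all symbols. The study displayed chromatin genes because they were higher in this state, so these ratios describe the states and support nothing further. The same choice bears on the contrasts with all symbols over all nuclei, since the libraries held different shares of high nuclei. Its part in those contrasts was not tested.

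Within the group the genes differed in how far the states were apart. CHD8 had 281, 275 and 291 CPM in the high state of Rom 6 HPA, Cont 6 HPA and 0 HPA, against 18.7, 12.1 and 17.2 CPM in the low state. KMT2CB had 75.1, 71.6 and 72.6 CPM in the high state, against 4.78, 3.14 and 4.63 CPM in the low state. NCOA6 had 56.7, 54.3 and 54.5 CPM in the high state, against 3.66, 2.85 and 3.84 CPM in the low state. These 3 genes had the largest log2 ratios, from 3.83 to 4.51. KMT2A (199, 184 and 200.4 CPM in the high state, against 16.4, 11.4 and 16.1 CPM in the low state) and KMT2C (213, 191 and 199 CPM, against 17.8, 12.5 and 15.9 CPM) were next. ASH1L had 440.2, 439 and 451 CPM in the high state, against 40.1, 33.4 and 39.3 CPM in the low state. CHD1 had 227, 221 and 223 CPM in the high state, against 31.1, 26.0 and 32.3 CPM in the low state, with log2 ratios of 2.87, 3.09 and 2.78.

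With features summed by symbol, ATRX and ARID1A had smaller ratios than the other 7 genes. ATRX had 240.3, 224 and 229.7 CPM in the high state, against 61.4, 56.6 and 61.7 CPM in the low state, and its log2 ratios were 1.97 (1.90 to 2.04), 1.99 (1.93 to 2.04) and 1.90 (1.81 to 1.98). ARID1A had 32.4, 34.4 and 32.2 CPM in the high state, against 9.27, 8.27 and 9.73 CPM in the low state, and its log2 ratios were 1.80 (1.61 to 1.99), 2.06 (1.91 to 2.21) and 1.73 (1.51 to 1.95). The mixture of the 9 transcripts therefore differed between the states. ATRX made up 13.6%, 13.2% and 13.1% of the UMIs of the 9 genes in the high state, against 30.2%, 34.1% and 30.7% in the low state. CHD8 went the other way, with 15.9%, 16.2% and 16.6% in the high state and 9.19%, 7.28% and 8.57% in the low state. RNA from broken nuclei can enter any droplet, and its part in the low levels was not tested.

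**Figure D2:**
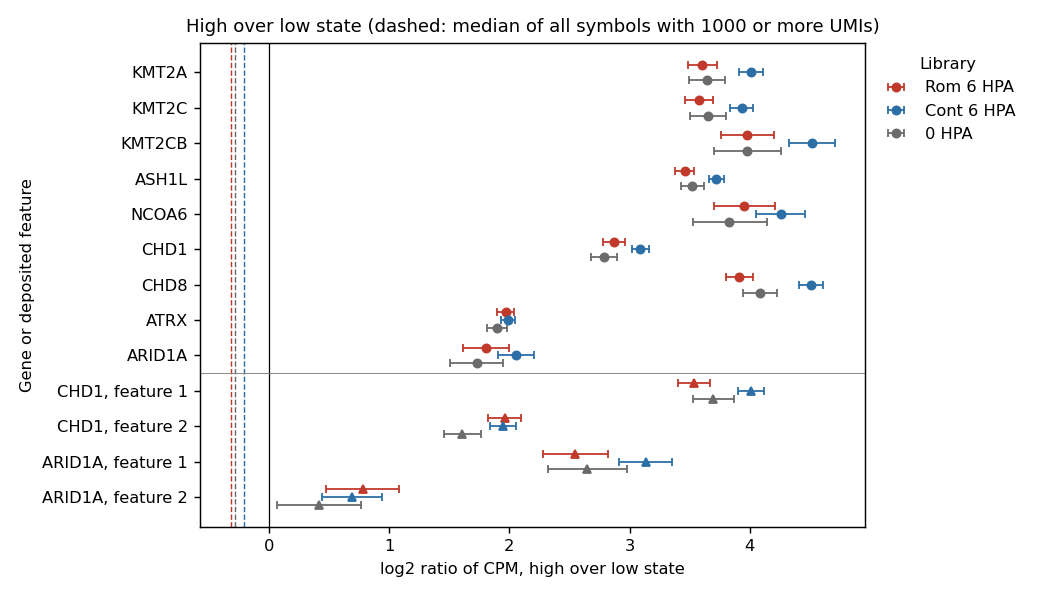
Log2 ratio of CPM in the high over the low state, with 95% counting intervals, for each gene (circles) and for the 2 features each of CHD1 and ARID1A (triangles), by library; dashed lines are the medians of all symbols with at least 1000 UMIs. All 9 genes lie right of 0, ATRX and ARID1A lie near 2, the second feature of ARID1A lies between 0.42 and 0.78, and the medians of all symbols lie between −0.32 and −0.21.

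The symbol ARID1A held features that behaved unlike each other, and so did CHD1. The first CHD1 feature had log2 ratios of high to low state of 3.54 in Rom 6 HPA, 4.01 in Cont 6 HPA and 3.69 in 0 HPA, against 1.96, 1.95 and 1.61 for the second. The first ARID1A feature had ratios of 2.55, 3.13 and 2.64, against 0.78, 0.69 and 0.42 for the second (0.48 to 1.08, 0.44 to 0.94 and 0.07 to 0.77). The intervals of the 2 features did not overlap in any library for either gene. Both ARID1A features share their number with 22 features named MAP4K4, which held 0 UMIs. Between libraries the same features differed too. For Cont 6 HPA over 0 HPA the log2 ratio was −0.80 for the first and −0.47 for the second CHD1 feature, and −0.64 for the first and −0.13 (−0.33 to 0.08) for the second ARID1A feature. Over both features ARID1A has a smaller difference between states than its first feature alone. The ratios of that first feature lay near those of CHD1 over both of its features (2.87, 3.09 and 2.78). They lay below those of the first CHD1 feature alone (3.54, 4.01 and 3.69).

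To compare nuclei at one depth, 950 UMIs were drawn at random from each nucleus (thinning), which left out 190, 101 and 2800 shallower nuclei of Rom 6 HPA, Cont 6 HPA and 0 HPA. At this depth 74.3% of high nuclei of Rom 6 HPA held a UMI of at least 1 of the 9 genes, as did 72.5% in Cont 6 HPA and 74.97% in 0 HPA. In the low state the shares were 17.4%, 14.4% and 17.1%. Without thinning they were 89.7%, 92.5% and 90.1% in the high state and 19.7%, 23.4% and 18.3% in the low state. Nuclei with several members were counted too, a share that rises with the share of nuclei in which each member is seen. At least 3 of the 9 genes were seen in 16.9%, 15.5% and 16.4% of thinned high nuclei, against 0.069%, 0.031% and 0.050% of thinned low nuclei. The mean number of members seen was 1.39, 1.33 and 1.37 in the high state, against 0.187, 0.153 and 0.186 in the low state. Whether members shared a nucleus more often than their single shares give was not tested.

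ASH1L was seen in 30.9%, 30.9% and 31.5% of high nuclei after thinning, against 3.68%, 2.98% and 3.74% of low nuclei. ATRX was seen in 19.5%, 18.1% and 18.9% of high nuclei, against 5.58%, 5.21% and 5.61% of low nuclei. ARID1A was seen in 2.73%, 2.93% and 2.82% of high nuclei, against 0.859%, 0.787% and 0.949% of low nuclei. No cell type known to lack these genes was at hand to set a background share.

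**Figure D3:**
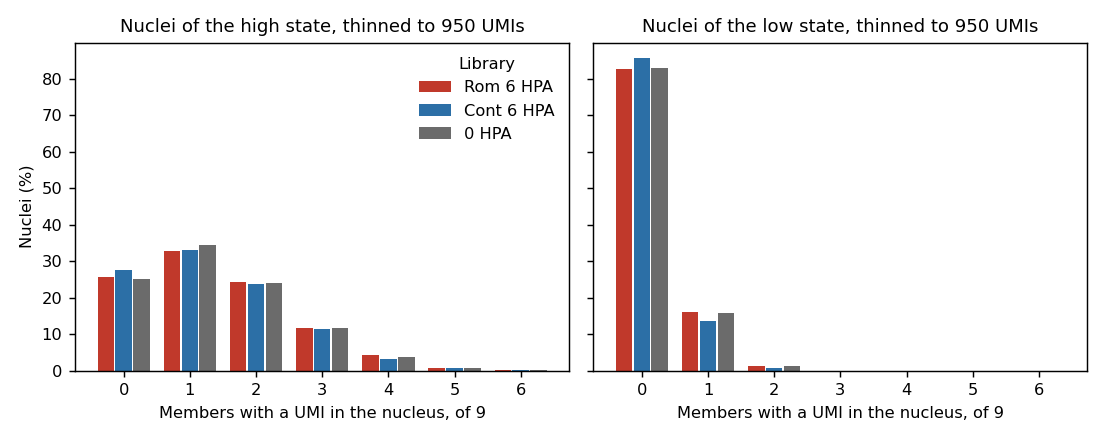
Percent of nuclei, thinned to 950 UMIs each, that held a UMI of 0 to 6 of the 9 genes, for the high state (left) and the low state (right), with Rom 6 HPA, Cont 6 HPA and 0 HPA as bars. No member was seen in 25.7%, 27.5% and 25.03% of high nuclei and in 82.6%, 85.6% and 82.9% of low nuclei of the 3 libraries.

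As high nuclei are deeper, the states were also compared among nuclei of 1200 to 1800 UMIs only, a range chosen after the data were seen. This narrowed the gap in depth but did not close it: in Rom 6 HPA, Cont 6 HPA and 0 HPA the median was 1548, 1672.5 and 1559.5 UMIs in high nuclei of this range, against 1246, 1587 and 1298 UMIs in low nuclei. In Rom 6 HPA the 9 genes summed to 1385 CPM in 1657 high nuclei (1339.9 to 1432), against 226 CPM in 2893 low nuclei (211 to 242). In Cont 6 HPA they summed to 1033 CPM in 226 high nuclei (931 to 1142), against 164 CPM in 45978 low nuclei (161 to 167). In 0 HPA they summed to 1369 CPM in 1710 high nuclei (1325 to 1414), against 231 CPM in 550 low nuclei (198 to 268). Within this range the median log2 ratios of high to low state were 3.22, 2.99 and 2.93, and the part of the remaining gap in depth was not tested. ARID1A in Rom 6 HPA, at 0.92, was the only one of the 27 ratios under 2-fold.

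Over high nuclei of all depths, the differences between libraries were much smaller than over all nuclei. Summed over the 9 genes, the high state had 1765 CPM in Rom 6 HPA (log2 ratio 0.06 to Cont 6 HPA), 1695 CPM in Cont 6 HPA and 1753 CPM at 0 HPA. For Rom 6 HPA over Cont 6 HPA the 9 genes had log2 ratios of −0.09 to 0.16 with a median of 0.06, and 0 reached 1.5-fold higher, against 2.19% of 2790 symbols. The intervals of KMT2C (0.16, 0.09 to 0.22), KMT2A (0.12, 0.05 to 0.18) and ATRX (0.10, 0.04 to 0.16) were above 0. Those of the other 6 genes covered 0, among them ASH1L at 0.00 (−0.04 to 0.05). For Cont 6 HPA over 0 HPA the ratios were −0.12 to 0.10 with a median of −0.03, and 0 reached 1.5-fold lower, against 0.985% of 2842 symbols. Here the intervals of KMT2A (−0.12, −0.19 to −0.06) and CHD8 (−0.08, −0.14 to −0.03) were below 0, but with median of ratios size factors these values turned to 0.00 and 0.04, and the median turned to 0.09. For all symbols in the high state the median was −0.04 for Rom 6 HPA over Cont 6 HPA. It was −0.11 for Cont 6 HPA over 0 HPA. High nuclei of Cont 6 HPA were deeper, with a median of 3432 UMIs against 2209 in Rom 6 HPA and 2198 at 0 HPA. Among high nuclei of 1200 to 1800 UMIs the members summed to 1033 CPM in Cont 6 HPA (226 nuclei, 931 to 1142). The sum was 1385 CPM in Rom 6 HPA (1339.9 to 1432) and 1369 CPM at 0 HPA (1325 to 1414). Cont 6 HPA was thus lower there by its interval. The range took unlike parts of the libraries: 226 of 6003 high nuclei of Cont 6 HPA, 1657 of 6991 of Rom 6 HPA and 1710 of 6908 of 0 HPA. It lay below the first quartile of UMIs of high nuclei in Cont 6 HPA (2633.5) but held those of Rom 6 HPA (1684) and 0 HPA (1728.75). Which sub-clusters these nuclei came from was not tested. The part of depth in the closeness of the libraries was not tested.

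In the low state the median differences between libraries were between those of the high state and those of all nuclei, but not every gene followed the median. The 9 genes summed to 203 CPM in Rom 6 HPA, 166 CPM in Cont 6 HPA and 201 CPM at 0 HPA. For Rom 6 HPA over Cont 6 HPA the median log2 ratio was 0.36, and KMT2CB (0.61, 0.33 to 0.88) and CHD8 (0.63, 0.49 to 0.76) were at least 1.5-fold higher, which is 2 of 9 genes against 2.20% of 4725 symbols. For both genes this ratio was larger than over all nuclei (0.53 and 0.50). KMT2CB was counted by 197 and 260 UMIs there and was below the minimum of 1000 UMIs that those symbols had to meet. For Cont 6 HPA over 0 HPA the median was −0.34 and no gene was 1.5-fold lower, against 1.28% of 4460 symbols, although all 9 intervals were below 0. Rom 6 HPA and 0 HPA were close to each other in the low state, where the 9 intervals of their ratio all covered 0.

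The libraries were then compared at 1 shared mix of the states, in which 30.7% of the UMIs come from the high state. This comparison was added after the data were seen. The median log2 ratio of the 9 genes was 0.10 for Rom 6 HPA over Cont 6 HPA (0.00 for ARID1A to 0.21 for KMT2C), against 0.48 at the libraries' own mixes. For Cont 6 HPA over 0 HPA it was −0.08 (−0.18 for KMT2A to −0.03 for ARID1A), against −0.80. At the shared mix 0 genes reached 1.5-fold in either comparison. The sign of each ratio was the same as over all nuclei. The low-state part of the shared mix compares mostly different clusters, as described above. Why the libraries held different shares of high nuclei was not tested, and with 1 library per condition the treatment and the preparation of a library cannot be told apart.

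**Figure D4:**
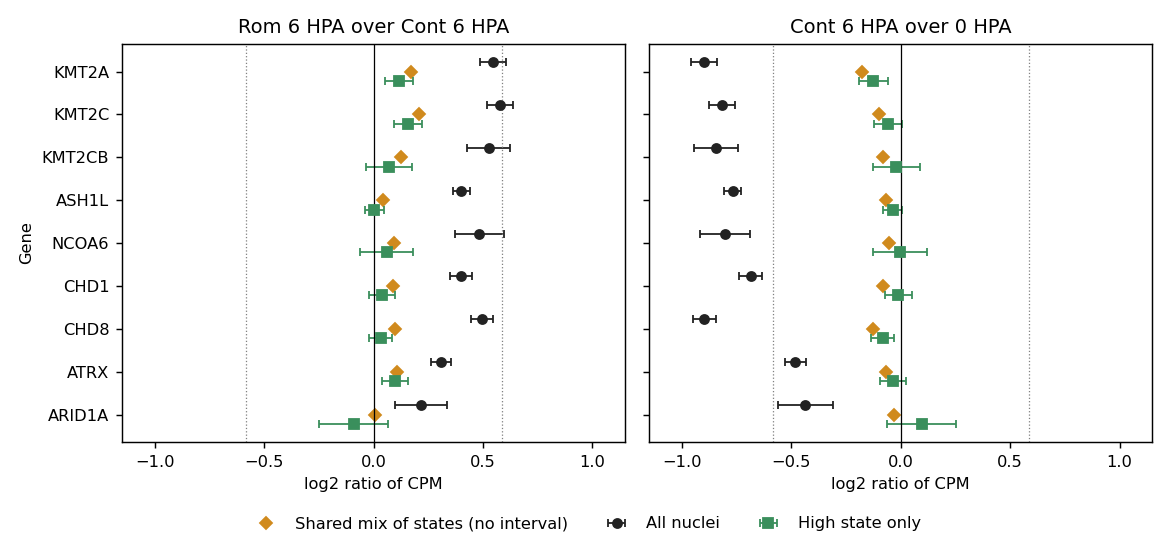
Log2 ratio of CPM for Rom 6 HPA over Cont 6 HPA (left) and Cont 6 HPA over 0 HPA (right) for each gene, over all nuclei (circles), in the high state (squares) and at 1 shared mix of states (diamonds, without intervals), with 95% counting intervals and dotted lines at 1.5-fold. Over all nuclei the medians are 0.48 and −0.80, and in the high state all 9 genes lie within 0.16 of 0 in both comparisons.

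High nuclei were clustered again into 24 sub-clusters to ask in which cell types the 9 genes were found. Sub-clusters were called by a cell type (X-like) from marker genes, and 9 types had at least 50 nuclei in each library. Nuclei of 10 further sub-clusters stayed unnamed, and 96 ciliated-like nuclei were too few. The 9 genes were found in all 9 types, and the highest type exceeded the lowest by 1.77-fold in Rom 6 HPA, 1.63-fold in Cont 6 HPA and 1.60-fold in 0 HPA. Their summed level was highest in neural-like nuclei, at 2259 CPM in Rom 6 HPA (2139 to 2384), 2077 CPM in Cont 6 HPA (1981 to 2176) and 2111 CPM at 0 HPA (2008 to 2219). Endothelial-like nuclei (2019, 1900.2 and 2047 CPM) and muscle-like nuclei (2038, 1869.9 and 1915 CPM) followed. These 3 types were above the rest of the high state in each library by their intervals. At 0 HPA melanocyte-like nuclei stood between these 2 types. Neural-like nuclei were above the next type by a log2 ratio of 0.15 in Rom 6 HPA (0.06 to 0.24, muscle-like) and of 0.13 in Cont 6 HPA (0.01 to 0.25, endothelial-like), whereas at 0 HPA the interval of this ratio covered 0 (0.04, −0.09 to 0.18, endothelial-like). Muscle-like and endothelial-like nuclei, neighbours in both 6 HPA libraries, were within counting error of each other there, with log2 ratios of muscle-like over endothelial-like of 0.01 in Rom 6 HPA (−0.11 to 0.14) and of endothelial-like over muscle-like of 0.02 in Cont 6 HPA (−0.08 to 0.12).

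The lowest levels were found in epithelial-like nuclei, with 1277 CPM in Rom 6 HPA (1237 to 1317), 1321 CPM in Cont 6 HPA (1286 to 1356) and 1361 CPM at 0 HPA (1324 to 1398), and in erythrocyte-like nuclei, with 1354, 1274 and 1316 CPM. With the sub-clusters used here, basal epidermis-like nuclei were also below the rest of the high state, with 1539, 1538 and 1543 CPM. Melanocyte-like nuclei (1829, 1592 and 1934 CPM) and notochord-like nuclei (1729, 1762 and 1547 CPM) were in between, and their side of the rest of the high state was not the same in each library. Myeloid-like nuclei (1657, 1339.8 and 1509 CPM) had log2 ratios to the rest of the high state of −0.09 in Rom 6 HPA (−0.23 to 0.04), −0.34 in Cont 6 HPA (−0.48 to −0.21) and −0.22 at 0 HPA (−0.39 to −0.05). The epithelial-like type was made up of different sub-clusters: one led by MUC5B and OTOF held 969, 900 and 19 nuclei of Rom 6 HPA, Cont 6 HPA and 0 HPA, and one led by GIG2P and GPRC6A held 15, 18 and 1327. Of the basal epidermis-like sub-clusters, one led by ARAP2 and LAMB3 held 856, 671 and 106 nuclei, and one led by MIR-205 and DST held 28, 26 and 741.

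Among the methyltransferases, ASH1L had the same highest and lowest type in each library. It was highest in muscle-like nuclei, with 626 CPM in Rom 6 HPA (596 to 656), 571 CPM in Cont 6 HPA (545 to 598) and 589.5 CPM at 0 HPA (559 to 621). It was lowest in erythrocyte-like nuclei, with 225 CPM (179 to 279.96), 246 CPM (209 to 287) and 301 CPM (212 to 414). ASH1L thus spanned 2.78-fold, 2.33-fold and 1.96-fold over the types. Muscle-like nuclei were above the next type, neural-like, by a log2 ratio of 0.32 in Rom 6 HPA (0.14 to 0.50). In Cont 6 HPA (0.11, −0.04 to 0.27) and 0 HPA (0.09, −0.07 to 0.25) the interval of this ratio covered 0. At 0 HPA the erythrocyte-like level was within counting error of the epithelial-like level (0.02, −0.45 to 0.53). Neural-like nuclei (503, 528 and 553 CPM) were also above the rest of the high state, and epithelial-like nuclei (287, 309.97 and 305 CPM) and basal epidermis-like nuclei (377, 381 and 368 CPM) were below it.

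KMT2A had another order. It was high in erythrocyte-like nuclei, where ASH1L was lowest, with 289 CPM in Rom 6 HPA (236 to 350.4), 228 CPM in Cont 6 HPA (193 to 269) and 236 CPM at 0 HPA (158 to 338). Its intervals there were not above the rest of the high state in each library. In muscle-like nuclei, where ASH1L was highest, KMT2A had 145, 128 and 149.95 CPM. KMT2A was below the rest of the high state in muscle-like, notochord-like (138, 120.05 and 137 CPM) and epithelial-like nuclei (134, 139 and 148 CPM) of each library. KMT2C was below the rest of the high state in basal epidermis-like nuclei (178, 171 and 180.2 CPM) and epithelial-like nuclei (169.6, 163 and 162 CPM), and it had 262, 217 and 215 CPM in muscle-like nuclei. KMT2CB was lower in epithelial-like nuclei, with 56.0, 55.2 and 58.7 CPM, and its other types did not differ from the rest of the high state in the same direction in each library beyond counting error. NCOA6 was lower in epithelial-like nuclei too, with 28.5 CPM in Rom 6 HPA (22.8 to 35.1), 30.9 CPM in Cont 6 HPA (25.9 to 36.7) and 33.6 CPM at 0 HPA (28.0 to 39.99). In neural-like nuclei it had 82.1, 95.1 and 77.3 CPM, above the rest of the high state in each library.

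Among the remodellers, ATRX stood out in neural-like nuclei, with 463 CPM in Rom 6 HPA (409.9 to 522), 356 CPM in Cont 6 HPA (317 to 398) and 389 CPM at 0 HPA (345 to 437). The next type, endothelial-like, had 294, 271 and 266 CPM, and the log2 ratio of neural-like over endothelial-like nuclei was 0.66 in Rom 6 HPA (0.31 to 1.02), 0.39 in Cont 6 HPA (0.09 to 0.70) and 0.55 at 0 HPA (0.19 to 0.92). ATRX was lower in epithelial-like nuclei (175, 179.9 and 174 CPM) and in muscle-like nuclei (208, 196 and 199 CPM) than in the rest of the high state of each library. CHD8 was higher in muscle-like nuclei (373, 345 and 355 CPM) and notochord-like nuclei (361, 389 and 367 CPM) and lower in epithelial-like nuclei (204, 209 and 244 CPM) and basal epidermis-like nuclei (219.8, 239.6 and 241 CPM). CHD1 was higher in muscle-like nuclei (262, 256 and 256 CPM) and lower in basal epidermis-like nuclei (175, 188 and 172 CPM), as was CHD8, and in notochord-like nuclei (175, 172 and 125 CPM), where CHD8 was higher. ARID1A was counted by 2 to 133 UMIs in a type, and no type was on the same side of the rest of the high state in all 3 libraries beyond counting error.

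Unnamed sub-clusters spanned a wider range than the named types. A sub-cluster led by FAT4 and VCAN (332, 342 and 488 nuclei of Rom 6 HPA, Cont 6 HPA and 0 HPA) had 2577, 2284 and 2365 CPM of the 9 genes. A sub-cluster led by ITGA8 (413, 256 and 562 nuclei) had 2512, 2426 and 2231 CPM. Both were above the rest of the high state in each library. KMT2A was above it in both (291, 231 and 274 CPM in the FAT4 and VCAN sub-cluster, and 329, 306 and 344 CPM in the ITGA8 sub-cluster) and in a sub-cluster led by PKD1 and RFX4 (351, 304 and 324 CPM), and ARID1A was above it in the ITGA8 sub-cluster alone (44.7, 53.3 and 44.1 CPM). The lowest sum was that of a sub-cluster led by SARNP and RPA2 (515, 368 and 361 nuclei, median 1384.5 UMIs over all libraries, the shallowest of the 24), with 637, 585 and 899 CPM.

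**Figure D5:**
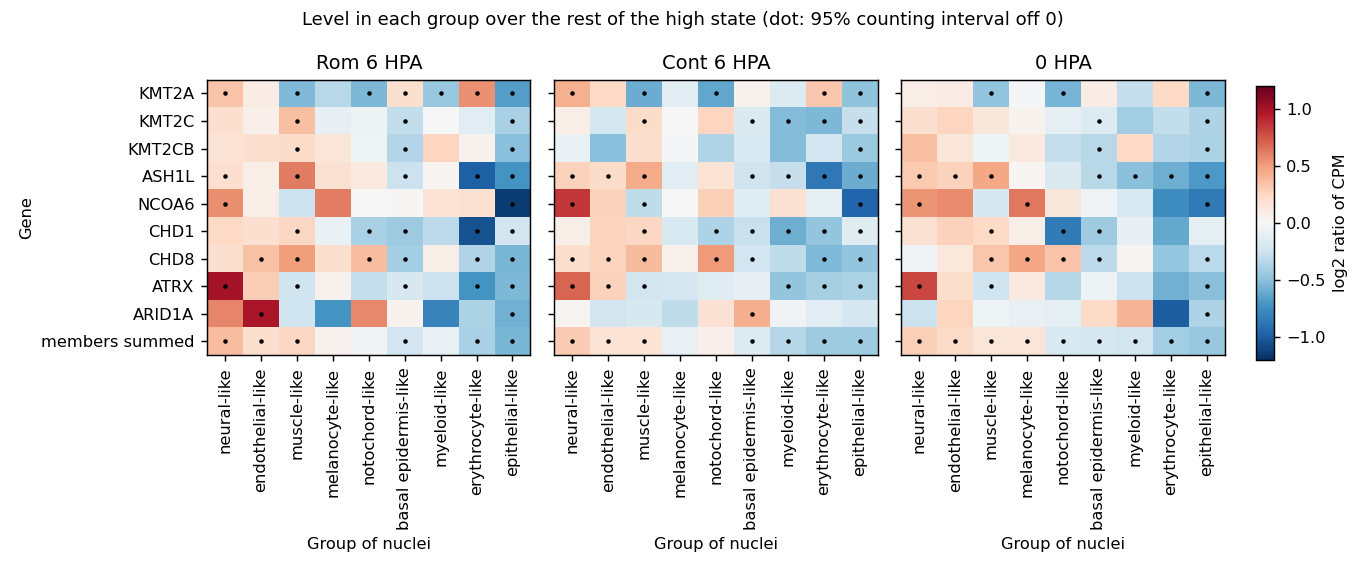
Log2 ratio of the CPM of each gene in a named type over the rest of the high state, by library (Rom 6 HPA, Cont 6 HPA and 0 HPA from left to right), as colours from −1.2 (blue) to 1.2 (red), with a dot where the 95% counting interval does not cover 0. ATRX in neural-like nuclei (0.70 to 0.99) and ASH1L in muscle-like nuclei (0.45 to 0.63) are red, and NCOA6 in epithelial-like nuclei (−1.14 to −0.84) is blue, in all 3 libraries.

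Within the 9 types, over nuclei of all depths, the libraries were again close. For Rom 6 HPA over Cont 6 HPA the summed level of the 9 genes had log2 ratios of −0.05 to 0.31 with a median of 0.09, and the interval was above 0 in 4 types and below 0 in 0. For Cont 6 HPA over 0 HPA the ratios were −0.28 to 0.19 with a median of −0.04, with 1 interval above and 1 below 0. For epithelial-like and basal epidermis-like nuclei these ratios compare mostly different sub-clusters, as described above. Of single genes, KMT2C had an interval above 0 for Rom 6 HPA over Cont 6 HPA in 3 of 9 types, and KMT2A, ASH1L and ATRX had one in 1 type each. ARID1A had 1 above and 1 below 0. The remaining genes had none, so most ratios of a gene in a type were within counting error.

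The other genes of these pathways were looked at through lists chosen with earlier results known, and for symbols with at least 200 UMIs. Of the partners of KMT2 complexes and other methyltransferases of lysine 4, 6 of 9 were at least 2-fold higher in the high than in the low state of Cont 6 HPA, against 22.9% of 7671 symbols. KMT2D, the paralog of KMT2C, had 96.2 CPM in the high state, against 6.27 CPM in the low state, whereas WDR5, a small core subunit of all these complexes, had 37.5 CPM in the high state, against 44.7 CPM in the low state. The median log2 ratio of this list was 2.48, against 0.04 for those symbols. All 7 methyltransferases of lysines 36 and 79 and their partners were past 2-fold (median 2.31), with WHSC1L1 at 223 and 17.3 CPM and NSD1 at 192 and 38.6 CPM in the high and low states. Of the remodellers of the CHD, ISWI and INO80 families, 8 of 10 were past 2-fold (median 2.68). The members with the most UMIs went apart, with BAZ1B, a subunit of ISWI complexes, at 411 and 70.9 CPM and CHD4, the motor of the NuRD complex, at 207 and 157 CPM.

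Of the BAF subunits, 5 of 10 were past 2-fold (median 0.90). The 2 with the most UMIs were not, with SMARCC1, a core scaffold subunit, at 60.5 CPM in the high state, against 42.8 CPM in the low state, and ARID1B, the paralog of ARID1A, at 39.9 and 32.4 CPM. A further list held partners of ATRX, H3.3 chaperones and heterochromatin genes, and is called ATRX partners and heterochromatin genes below. Of its genes, 6 of 8 were past 2-fold (median 1.37). Among them were the H3.3 chaperone HIRA (42.0 and 14.5 CPM) and the lysine 9 methyltransferase SUV39H1 (59.8 and 24.8 CPM). The opposing Polycomb group had 7 of 15 past 2-fold (median 0.73), with CBX7 at 279 and 30.6 CPM and CBX6 at 38.3 and 34.1 CPM. Among histone demethylases it was 7 of 10 (median 1.33), with KDM5B, which removes lysine 4 methylation, at 69.4 and 23.97 CPM and KDM3B at 64.5 and 39.4 CPM. Among acetyltransferases, their readers and deacetylases it was 11 of 18 (median 1.84), with the acetyltransferase CREBBP at 129 and 23.8 CPM, and HDAC1, a target of romidepsin, at 47.8 CPM in the high state, against 63.7 CPM in the low state. Of 9 nuclear genes outside these families 8 had enough UMIs, and 6 of them were past 2-fold (median 1.85), with WAPAL at 473 and 52.8 CPM and CENPE at 328 and 29.9 CPM. Higher levels in the high state were thus also measured for many other chromatin genes and for nuclear genes outside the lists of chromatin genes.

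Inside the high state few genes of the lists differed between libraries. For Rom 6 HPA over Cont 6 HPA, 1 of 13 Polycomb genes, 1 of 10 demethylases and 1 of 8 nuclear genes were at least 1.5-fold higher. Over all 6549 symbols this share was 3.22%. On the lower side 1 of 13 Polycomb genes passed 1.5-fold, against 3.37%. In the remaining lists no gene passed 1.5-fold in either direction. These were 0 of 9 partners of KMT2 complexes, 0 of 7 methyltransferases of lysines 36 and 79 and 0 of 9 BAF subunits. The same held for 0 of 10 other remodellers, 0 of 8 ATRX partners and heterochromatin genes and 0 of 17 acetylation genes. KDM3A, a demethylase of histone H3 lysine 9, had 50.6 CPM in Rom 6 HPA and 19.9 CPM in Cont 6 HPA, a log2 ratio of 1.34. CBX2, a Polycomb subunit, had 21.7 CPM in Rom 6 HPA and 10.4995 CPM in Cont 6 HPA, a log2 ratio of 1.05. KIAA1551 (0.79) and, on the lower side, the Polycomb methyltransferase EZH2 (−0.76) were named after their values were seen. The ratios of the 9 members lay between −0.09 and 0.16. Over all nuclei, 4 of 11 partners of KMT2 complexes, 4 of 7 methyltransferases of lysines 36 and 79, 3 of 11 BAF subunits and 6 of 11 other remodellers were at least 1.5-fold lower in Cont 6 HPA than at 0 HPA, against 14.7% of 8318 symbols. So were 3 of 9 ATRX partners and heterochromatin genes, 5 of 18 Polycomb genes, 3 of 10 demethylases, 9 of 19 acetylation genes and 5 of 8 nuclear genes.

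Likeness to the members was measured over 27 points, the 9 named types in each of 3 libraries, as Pearson's r of log2(CPM + 1) with the mean profile of the members. The points share nuclei clusters, libraries and depth, so r is a description. Each member is itself part of this mean, which raises its r, so members and other symbols are not on a par. Among the members r was highest for ATRX (0.87) and ASH1L (0.80) and lowest for KMT2A (0.25). The median r with the other members was 0.49 for ATRX, 0.57 for ASH1L and 0.02 for KMT2A. Of 6114 other symbols, TRIO (0.88), BAZ2B (0.88), WIZ (0.86), CC2D2A (0.85), HOXB3 (0.84), PCDHAC2 (0.84), TMEM88 (0.84), ZMYND8 (0.83), NCOR1 (0.83) and NYNRIN (0.81) had the highest r. Only BAZ2B, a remodeller subunit, and NCOR1, a scaffold of a deacetylase complex, were on the chromatin lists used here. The other symbols named were on none of these lists.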

How the data were processed

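Libraries were made with 10x Genomics v3 chemistry. Read alignment and UMI counting by the authors used Cell Ranger and a transcript assembly of the axolotl. The processing notes name version 6.0.0 and the file headers 3.0.2. The deposited values are raw counts per feature and nucleus, without normalization. Every deposited nucleus was used.

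UMIs were summed by symbol, and CPM, exact Poisson intervals of sums, exact conditional intervals of ratios and exact binomial intervals of shares were computed at 95%. No test was run, since each condition had 1 library. Depth sets the precision: the widest interval of a gene over a library was 6.98% either side (ARID1A). Counts of features seen in 20 nuclei or more were scaled to the median nucleus, the 3000 most dispersed at their mean level were kept after 160 chromatin symbols were left out, and 10 components and 15 neighbours were used for Leiden clustering (resolution 1). Ward linkage gave 2 states. High nuclei were clustered again with 20 components. A sub-cluster was named when at least 3 markers were over 2-fold higher than in other nuclei and 1 was among its 10 leading symbols. Sub-clusters 3, 20 and 24 passed but were left unnamed after their leading symbols were seen, because these were mixed or went against the name. These names were rebuilt and can differ from those of the study. Doublets were kept, and an alternative left out the 6% of nuclei with the highest scores from simulated doublets.

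The members and lists were chosen with earlier results of these data known. Named genes are the 9 members, the 2 symbols of each list with the most UMIs, list members past 2-fold between libraries in the high state, and the 10 symbols most like the members. Of the members, 8 of 9 matched a RefSeq symbol, all but KMT2CB, and no coordinates were used. The calculation of ratios was tested on simulated counts. Alternatives covered scaling, features, doublets, depth and the definition of the states, and those without shared barcodes, at 1 shared mix and at 1200 to 1800 UMIs were added after seeing the data. Python 3.11.15 with numpy 2.4.6, scipy 1.17.1, python-igraph 0.11.9, leidenalg 0.10.2 and matplotlib 3.10.9 was used.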

Additional observations from a re-analysis of the deposited data

How the results depend on the processing

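No paired analysis was possible because each group has 1 library, and for the same reason no replicate was left out. Over all nuclei all 54 log2 ratios (9 genes under 6 alternatives, the shared mix included) were above 0 for Rom 6 HPA over Cont 6 HPA and below 0 for Cont 6 HPA over 0 HPA.

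The median of the 9 genes for Cont 6 HPA over 0 HPA, −0.80 over all nuclei, was −0.66 with median of ratios size factors, −0.97 with nuclei thinned to 950 UMIs and −0.079 at 1 shared mix of states, where the count past 1.5-fold was 0 instead of 7. For Rom 6 HPA over Cont 6 HPA the median of 0.48 was 0.10 at the shared mix, and the count past 1.5-fold, 0 over all nuclei, was 1 with size factors and 3 with thinning. In the high state the median of Cont 6 HPA over 0 HPA, −0.03, was 0.092 with size factors, where KMT2A was at 0.00 (0.0012) and CHD8 at 0.043, both below 0 otherwise. In the high state 78 of 90 ratios of Rom 6 HPA over Cont 6 HPA were above 0 and 66 of 90 of Cont 6 HPA over 0 HPA were below 0. The median ratio of high to low state in Rom 6 HPA, 3.58, was 3.70 with size factors, 3.43 with 20 components, 3.404 with clusters of thinned nuclei, 3.07 with the high state set as nuclei over 1.5 times the median UMIs, and 3.22 for nuclei of 1200 to 1800 UMIs. In Cont 6 HPA, 3.93 was 3.8002 with 20 components, 3.60 with the cut on UMIs and 2.99 for 1200 to 1800 UMIs. In 0 HPA, 3.64 was 3.399 with 20 components, 3.45 with clusters of thinned nuclei, 3.06 with the same cut and 2.93 for 1200 to 1800 UMIs. The causes of these shifts were not tested. Of the medians, counts and the span over types under an alternative, 111 moved by no more than a set limit and 20 moved further. The limit was the counting interval or, for counts, shares and the span, a factor of 1.5. For single genes, levels of types and shares of symbols, 472 values stayed within it and 142 moved further. Another 2 changed sign from a ratio whose interval did not cover 0. Sign changes of ratios whose interval covered 0 are among the 472 and 142 values. With a minimum of 100 UMIs, 6.09% of symbols were past 1.5-fold higher in Rom 6 HPA than in Cont 6 HPA and 17.2% lower in Cont 6 HPA than at 0 HPA. The highest level of a named type exceeded the lowest, over all libraries, by 1.77-fold, and by 1.79-fold with sub-clusters at resolution 2. These spans cover different types, since ciliated-like and spinal cord progenitor-like nuclei were added at resolution 2. Levels of single types moved: at resolution 2 basal epidermis-like nuclei of Rom 6 HPA had 1803 CPM instead of 1539 CPM.

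The intervals cover counting error and not the spread between embryos, pools or library preparations, which these 3 libraries do not give. Single nuclei hold few UMIs of any member, so shares of nuclei depend on depth and were read after thinning. ARID1A, with the fewest UMIs, is the gene for which types and libraries are least resolved.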
